A study of Oryctolagus cuniculus with 2 samples.

Results

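The main body of rod photoreceptors was examined in single-nucleus RNA-seq of the rabbit retina. It was taken as the nuclei that the authors labelled rods and placed in their clusters 0, 1 or 3, and it held 3082 of 6542 nuclei and 3082 of the 4296 nuclei labelled rods. Wild-type rabbits were compared with CLRN1 knockout rabbits, all 10 months old. A punch of 5 mm was taken per animal in the visual streak, the band of high cell density of the rabbit retina. For each genotype, 1 droplet library was made from the pooled nuclei of 3 animals, which gave 1647 nuclei of the main body in the wild-type against 1435 in the knockout library. Nuclei were not assigned to animals here. With 1 library per genotype there is no replicate check, no test was made, and the genotype cannot be told apart from the pool of animals or the library. The intervals given for shares (Clopper-Pearson) and for sums of counts (Poisson) are exact 95% intervals that cover counting error only.

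Rods are the photoreceptors of dim light. They hold rhodopsin in stacked membrane discs of the outer segment, and light closes cation channels there through transducin and a phosphodiesterase, which lowers transmitter release onto bipolar cells. Rod nuclei are small and tightly packed, and they form most of the outer nuclear layer of this retina. CLRN1 encodes clarin-1, a membrane protein whose loss causes a form of Usher syndrome, with hearing loss and a degeneration that begins in rods.

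The rows of the count matrix carry numbers in place of gene names, so no rod gene can be named, the knockout cannot be checked at CLRN1 itself, and rows are described by rank. The matrix columns could be tied to nuclei by position. The total and the number of detected rows equalled the authors' table at the same position for 6542 of 6542 columns, and this pair of values was unique for 6315 columns, 2883 of them in the main body. The libraries shared 5 cell barcodes, which involved 4 nuclei of the main body. The lowest number of UMIs (unique molecular identifiers, each standing for 1 captured transcript) in a nucleus was 499.

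The rod label was set beside the deposited scores. Both come from the same counts, so this is a description and no independent check of the label. Of 9 module scores, each the mean level of a list of genes for a cell type less that of control genes, the rod score was the highest in 2829 of 3082 nuclei (91.8%). The general photoreceptor score was the highest in another 202 nuclei, and the remaining scores led in 1 to 17 nuclei each. The rod score led in 90.4% (88.9 to 91.8%) of wild-type against 93.4% (92.0 to 94.6%) of knockout nuclei. It led less often in cluster 3, in 80.5% and 82.6% of its nuclei, than in cluster 1, in 94.2% and 96.1%. The clusters were made by the authors from the same genes, so differences between clusters are given as a description.

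The main body made up nearly the same share of both libraries, 47.3% (45.6 to 48.9%) of wild-type against 46.9% (45.1 to 48.7%) of knockout nuclei. Among nuclei labelled rods its share was 73.6% (71.7 to 75.4%) and 69.7% (67.7 to 71.7%). Its division over the clusters differed between the libraries. Cluster 0 held 925 of the 1647 wild-type nuclei, 56.2% (53.7 to 58.6%), and 576 of the 1435 knockout nuclei, 40.1% (37.6 to 42.7%). Cluster 1 held 30.5% (28.3 to 32.8%) of the wild-type against 50.7% (48.0 to 53.3%) of the knockout main body. Cluster 3 held 13.4% (11.8 to 15.1%) and 9.20% (7.75 to 10.8%). Cluster 0 was thus the most frequent cluster in the wild-type and cluster 1 in the knockout library, and in each of the 3 clusters the intervals of the libraries lay apart.

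The clusters differed in depth in both libraries, and depth moved with the cluster shares. Cluster 0 had a median of 666 UMIs per nucleus (quartiles 566 and 804) in the wild-type against 659 (571 and 800) in the knockout library. Cluster 1 had 988 (808.5 and 1224) and 1055 (867 and 1364), and cluster 3 had 748.5 and 881.5. Over the main body the median was 761 (604 and 963) in wild-type against 865 (660 and 1137) in knockout nuclei, 1.14-fold higher in the knockout library. The difference was not seen in cluster 0, was 1.07-fold in cluster 1 and 1.18-fold in cluster 3. With the clusters weighted alike the log2 ratio of the medians was 0.11, against 0.18 over all nuclei. Nuclei under 1000 UMIs made up 78.1% (76.1 to 80.1%) of wild-type against 64.5% (61.9 to 66.9%) of knockout nuclei. Among nuclei with 1000 or more UMIs, the difference in the share of cluster 1 was 14.3 percentage points in place of 20.2, and that of cluster 0 −9.98 in place of −16.0.

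**Figure D1:**
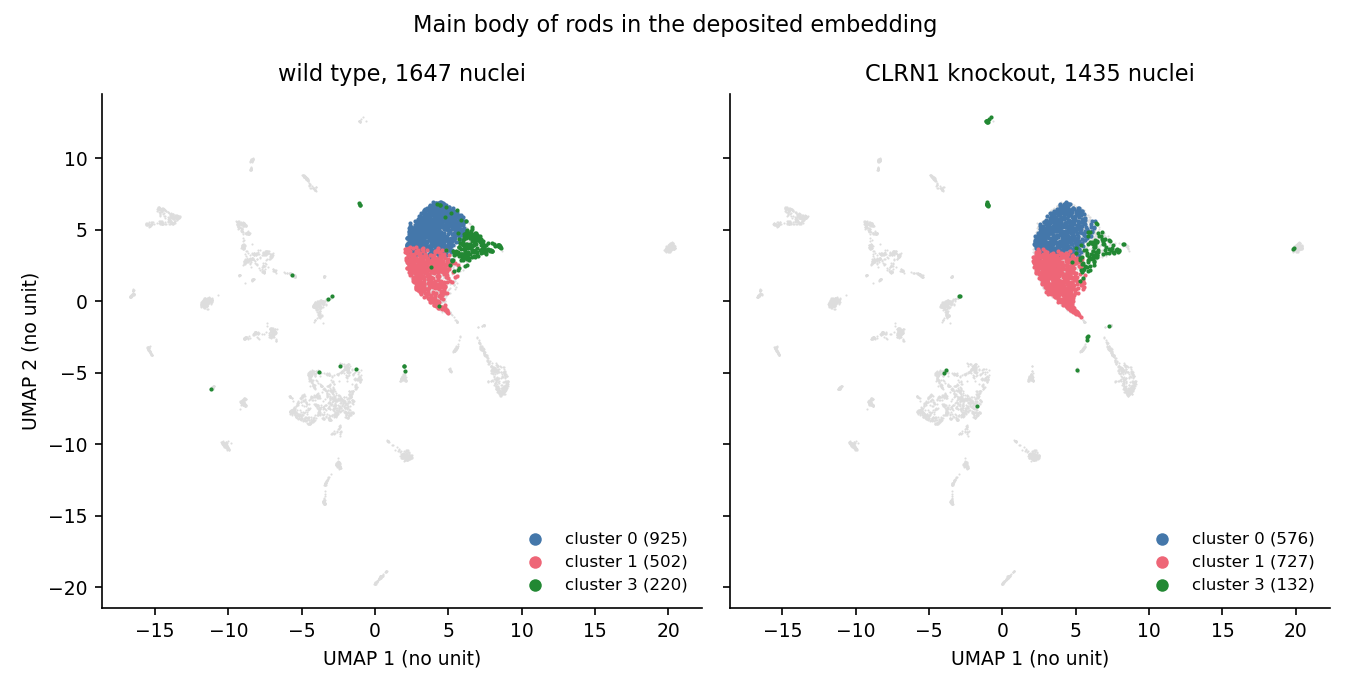
The deposited embedding (UMAP 1 against UMAP 2, no unit) with the main body coloured by cluster, wild type on the left and knockout on the right; grey points are all nuclei of both libraries. Clusters 0 and 1 form one field in both libraries, with more of cluster 0 in the wild type (925 against 576) and more of cluster 1 in the knockout (727 against 502), and small groups of cluster 3 lie far from the field.

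The embedding placed the 3 clusters side by side as one field. Joining nuclei up to 1 unit apart gave a largest part of 3035 nuclei, which held every nucleus of clusters 0 and 1 and 305 of the 352 nuclei of cluster 3. Cluster 0 lay at the top of this field, with a median UMAP 2 of 4.96 in wild-type against 4.71 in knockout nuclei. Cluster 1 lay below it, at 2.15 and 1.73, and cluster 3 to its right, with a median UMAP 1 of 6.47 and 6.08. UMIs per nucleus fell along UMAP 2, with a Spearman correlation over the 3035 nuclei of −0.71. It was −0.65 over the 1634 wild-type nuclei and −0.75 over the 1401 knockout nuclei. These correlations run across nuclei of 1 library each and describe the embedding only.

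The libraries were mixed unevenly in the embedding. The values cover the whole main body, with the nuclei of cluster 3 outside the field. Among the 15 nearest main-body neighbours of a wild-type nucleus, 43.2% on average were knockout nuclei, against 50.4% around a knockout nucleus and 46.6% in the pool. Within cluster 0 the values were 38.4% and 37.9%, and within cluster 1 they were 56.7% and 61.0%. In cluster 3 the neighbours of wild-type nuclei were knockout nuclei in 32.6% of cases and those of knockout nuclei in 46.7%. With the 30 nearest neighbours the values in cluster 3 were 33.2% and 41.9%. Cluster 0 was the cluster in which the 2 libraries lay on top of each other most closely.

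The 47 nuclei of cluster 3 outside the field lay in 14 separate places. The most populous of these held 14 nuclei, 3 wild-type and 11 knockout, with a median rod score of 0.46 against 1.38 in the field. The next held 11 nuclei, all from the knockout library, with a median of 4291 UMIs per nucleus (530 to 11680) against 798 in the field. In this group of 11 the rod score was the highest score in 10 nuclei, with a median of 1.01, and the cone score came next with a median of 0.32. The remaining places held 1 to 4 nuclei each.

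More different genes were detected in knockout nuclei than in wild-type nuclei at equal depth, by a small margin. Unthinned, the number of detected rows per UMI was lower in the knockout library, 0.697 against 0.709, as it falls with depth. When each nucleus was thinned to 500 UMIs, the median was 385 detected rows (quartiles 377 and 393, 1646 nuclei, 1 left out) in wild-type against 390 (383 and 397, 1435 nuclei) in knockout nuclei. The higher median was that of the knockout library in cluster 0 (384 and 388), in cluster 1 (389 and 391) and in cluster 3 (376 and 381.5). The quartile ranges of the libraries overlapped in each cluster. Rod cluster 2, the RNA-rich rod cluster that is not part of the main body, had 402.5 and 408 detected rows at the same depth, and cones had 385 and 398. The main body thus had fewer detected rows than cluster 2 at equal depth in both libraries. When nuclei were thinned to 1000 UMIs, the wild-type and knockout medians were 672 and 674.5 in cluster 0 and 689.5 and 690 in cluster 1. They rest on 67 and 44 nuclei of cluster 0, with 858 and 532 left out. In cluster 1 they rest on 240 and 413, with 262 and 314 left out. In cluster 3 they were 658 and 674, over 53 nuclei of each library.

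Mitochondrial transcripts, which mark cytoplasm carried along with a nucleus, set cluster 3 apart. More than 1% of UMIs were mitochondrial in 52.7% (45.9 to 59.5%) of its wild-type and 41.7% (33.2 to 50.6%) of its knockout nuclei. In clusters 0 and 1 together this share was 2.59% (1.83 to 3.56%) and 1.30% (0.762 to 2.08%). Over the main body it was 9.29% (7.93 to 10.8%) and 5.02% (3.95 to 6.28%), higher in the wild-type library with intervals that lay apart. The median share was 1.16% of UMIs in wild-type against 0.801% in knockout nuclei of cluster 3, and at most 0.124% in clusters 0 and 1 of either library. No mitochondrial UMI at all was found in 37.7% (35.4 to 40.1%) of wild-type against 41.9% (39.3 to 44.5%) of knockout nuclei of the main body.

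The mitochondrial rows could be recognised by their values: 10 rows summed to the deposited mitochondrial UMIs in 6542 of 6542 nuclei. Levels of rows are given as counts per 1000000 UMIs of a population (CPM). In clusters 0 and 1 the mitochondrial rows took 1625 CPM (1554 to 1698) in the wild-type against 1179 (1121 to 1239) in the knockout library. In cluster 3 they took 22728 (22058 to 23413) and 10591 (10118 to 11081), a 2.15-fold lower sum in the knockout. A sum weighs each nucleus by its UMIs, and the knockout nuclei of cluster 3 held 177504 UMIs. Of these, 3841 and 3705 lay in 2 nuclei described below, with 0.0781% and 0.108% mitochondrial UMIs. The group of 11 knockout nuclei outside the field had medians of 4291 UMIs and 0.0738% mitochondrial UMIs. The part of these nuclei in the sum was not tested. The medians per nucleus, 1.16% and 0.801%, differed less. Cluster 0 differed least, with 2038 (1930 to 2150) and 1912 (1780 to 2051) and overlapping intervals. The sums of the libraries thus differed most in cluster 3 among the 3 clusters.

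**Figure D2:**
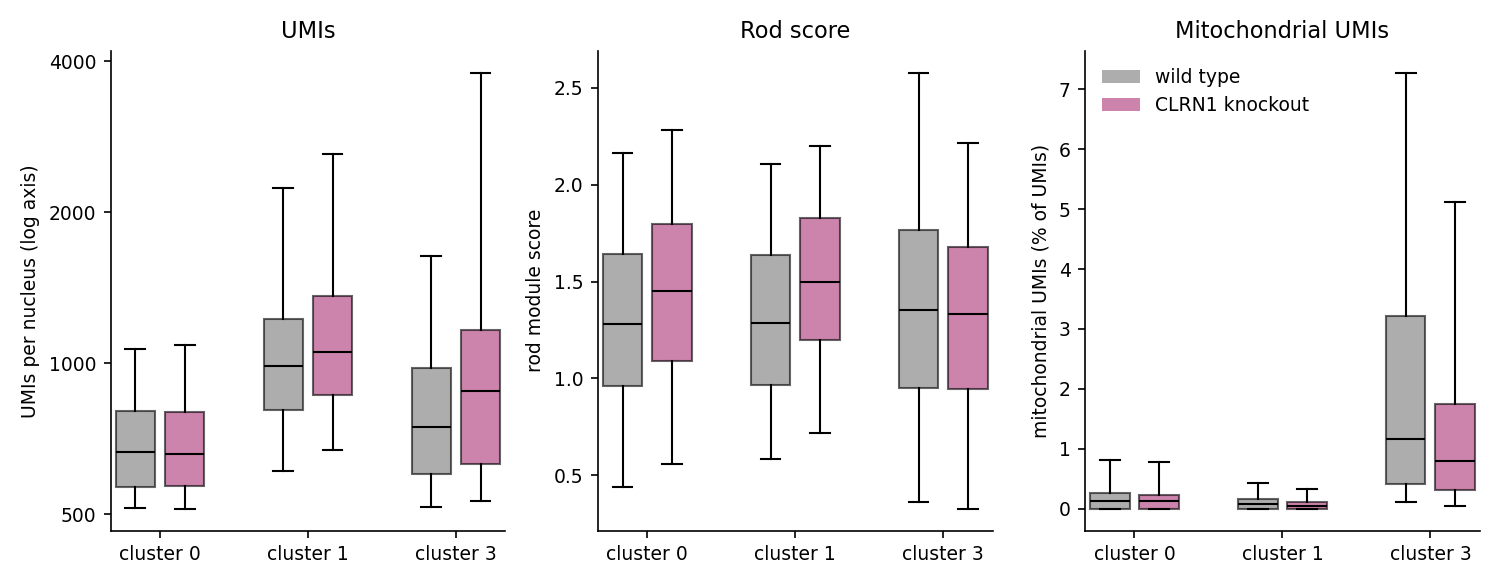
UMIs per nucleus (log axis), rod module score and percent of mitochondrial UMIs by cluster and library; boxes span the quartiles, the line is the median and whiskers run from the 5th to the 95th percentile of nuclei. Cluster 1 is the deepest, cluster 3 has the most mitochondrial UMIs, and the rod score is higher in the knockout library in clusters 0 and 1 but not in cluster 3.

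The rod score was higher in the knockout library. Wild-type nuclei had a median of 1.29 (quartiles 0.96 and 1.66), knockout nuclei one of 1.46 (1.12 and 1.81), a difference of 0.17 with quartile ranges that overlapped widely. In cluster 0 the medians were 1.28 and 1.45, and in cluster 1 the wild-type median was 1.28 and the knockout median 0.21 higher. In cluster 3 they were 1.35 and 1.33, a difference of −0.02. Within bins of UMIs the knockout median was higher in 5 of 5 bins, and the weighted difference was 0.17. In nuclei under 750 UMIs the medians were 1.35 and 1.47, and in nuclei with 2500 or more they were 1.16 (17 nuclei) and 1.39 (57 nuclei). Across the 3035 nuclei of the field the Spearman correlation of the rod score with UMIs was −0.01.

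Over the main body the medians of the 8 other scores differed little. They were higher in the knockout library for the general photoreceptor score (0.02) and the bipolar score (0.01) and lower for 5 scores, by at most 0.01. The microglia score had a median of 0 in both. Within clusters the bipolar score differed by 0.06 in cluster 1 and 0.07 in cluster 3. Within bins of UMIs the weighted differences were 0.0049 in cluster 1 and 0.026 in cluster 3. The rows of this score took 662 and 667 CPM in cluster 1 and 474 and 766 in cluster 3. The general photoreceptor score differed by 0.36 in cluster 1, where its medians were −0.56 and −0.20, but by 0.00 in cluster 0. Its medians in cluster 3 were −0.30 and −0.11, while the sum of its rows was lower in the knockout library, at 1246 against 642 CPM. This score rested on 2 rows, and a nucleus without a UMI of either row takes a low value. In cluster 1 such nuclei made up 55.6% of the wild-type against 48.7% of the knockout nuclei, so that the median fell on either side of the step. When nuclei were thinned to 500 UMIs, the share with a UMI of these rows in cluster 1 was 24.7% (21.0 to 28.7%) and 28.3% (25.1 to 31.8%), with overlapping intervals. In amacrine cells, which are interneurons and no photoreceptors, the share at the same depth was 5.89% in the wild-type against 3.84% in the knockout library. Their nuclei had medians of 2522.5 and 3217 UMIs before thinning, against 988 and 1055 in cluster 1.

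The rows behind the rod score could be read from the matrix. A least-squares fit of the deposited score on the log-normalised levels of the 4500 most abundant rows left no residual above 1e-06 in any nucleus. The score is the mean of 6 rows less the mean of 468 control rows, and 3 of the 6 rows are also among the controls. The 6 rows ranked 4, 13, 77, 89, 112 and 1314 by UMIs in the main body. The row of rank 4 alone took 0.855% of all UMIs of the main body and the row of rank 13 took 0.375%. A nucleus of the main body held a median of 13 UMIs (quartiles 9 and 17) in the 6 rows together. At least 1 UMI of these rows was found in 3080 of 3082 nuclei, and the 2 nuclei with none were knockout nuclei of cluster 3.

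As sums over nuclei, the rod rows were higher in the knockout library in clusters 0 and 1 and lower in cluster 3. Summed over the 6 rows they took 14940 CPM (14646 to 15238) in wild-type against 16980 (16582 to 17385) in knockout nuclei of cluster 0. In cluster 1 they took 13688 (13386.5 to 13994) and 17001 (16735 to 17271), 1.24-fold higher in the knockout. In cluster 3 they took 25778 (25064 to 26507) and 14698 (14140 to 15273), 1.75-fold lower. In each of the 3 clusters the intervals lay apart. Over the main body these opposite differences left 15896 and 16723, a 1.05-fold difference.

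The 6 rows differed in size. The second of them had 3113 CPM (2980 to 3251) in wild-type against 4070 (3876 to 4270) in knockout nuclei of cluster 0, and 3225 (3080 to 3375) and 4403 (4268 to 4541) in cluster 1. Of the 6 rows it added most to the difference in the mean rod score over the main body, 0.07. The other rows added 0.0041 to 0.05 each, and the control rows took away 0.05, which left a difference of 0.14. The fifth had 840 (767 to 919) and 1204 (1134 to 1277) in cluster 1, 1.43-fold higher in the knockout. The first, the most abundant, had 8186 (7969 to 8408) and 8652 (8369 to 8942) in cluster 0, with overlapping intervals, and 6675 (6465 to 6890) and 8134 (7950 to 8321) in cluster 1. The fourth had 1217 and 1237 in cluster 0 and 1351 and 1436 in cluster 1, with overlapping intervals in both. All 6 rows had the higher level in the knockout library in both clusters, and none of them differed by 2-fold there.

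In cluster 3 the first rod row was unevenly spread over nuclei and was 2.10-fold lower in the knockout library. It had 17352 CPM (16768 to 17952) in wild-type against 8276 (7858 to 8710) in knockout nuclei of cluster 3. Of its 3328 wild-type UMIs there, 44.5% came from 10 of the 220 nuclei, and 1 nucleus held 409. In the knockout library 10 of 132 nuclei held 34.9% of the 1469 UMIs, and the highest nucleus held 80. Per nucleus, the median share of UMIs in this row was 0.881% in wild-type against 0.766% in knockout nuclei of cluster 3. The corresponding medians were 0.765% and 0.800% in cluster 0 and 0.639% and 0.757% in cluster 1. The medians per nucleus thus differed less between the libraries in cluster 3 than the sums did.

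**Figure D3:**
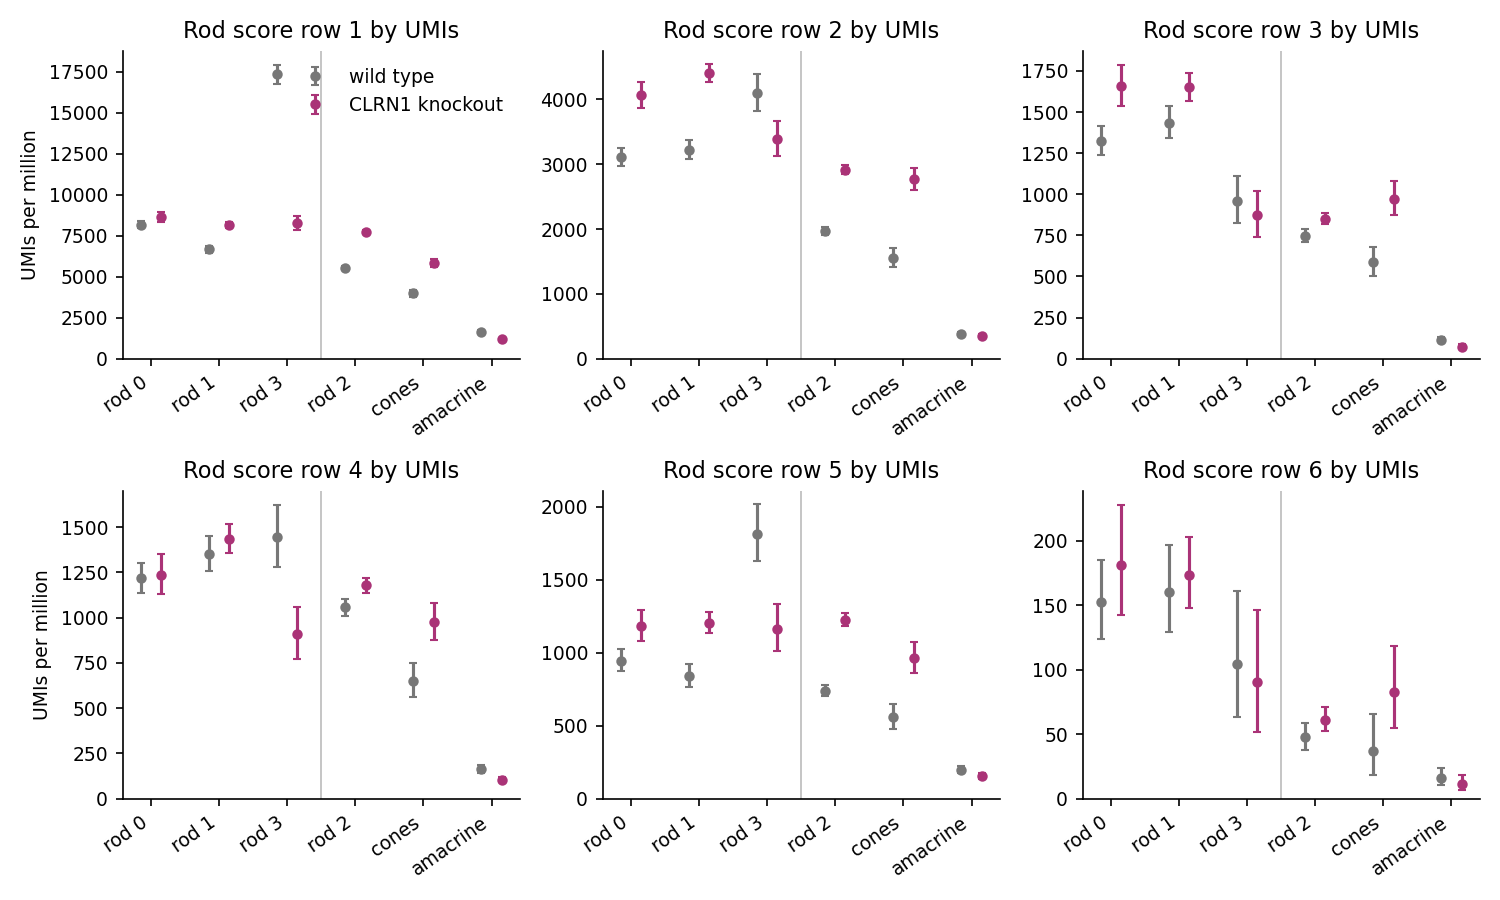
CPM of the 6 rows that make up the rod score, in the clusters of the main body (left of the grey line) and in rod cluster 2, cones and amacrine cells; points are sums over the nuclei of 1 library and bars are exact 95% Poisson intervals. In clusters 0 and 1 the knockout level is above the wild-type level in all 6 rows. In cluster 3 it is below it, with overlapping intervals in the third and sixth row.

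The same rows were also higher in the knockout library in other photoreceptors and in bipolar cells, and lower in amacrine and horizontal cells. In rod cluster 2 the 6 rows summed to 10107 CPM (9961 to 10254) in the wild-type against 13964 (13822 to 14107) in the knockout library. In cones they summed to 7369 (7065 to 7683) and 11595 (11242 to 11957). In amacrine cells they summed to 2521 (2441 to 2603) and 1878 (1812 to 1945), lower in the knockout. Bipolar cells had 5870 (5603 to 6146) and 6597 (6273 to 6935), higher in the knockout, and Müller glia had 5927 (5636 to 6229) and 6537 (6169 to 6921), with overlapping intervals. The second rod row was 1.62-fold higher in the knockout library in Müller glia and 1.36-fold higher in bipolar cells. Horizontal cells had 2335 (2130 to 2554) and 1431 (1311 to 1560), and ganglion cells had 1158 (1083 to 1237) and 1214 (1143 to 1289). The rows are unnamed, so it is not known whether their counts in amacrine, bipolar, horizontal and ganglion cells and Müller glia are free RNA. Over these cell types the difference between the libraries did not run in 1 direction. At 500 UMIs, 67.0% (62.9 to 70.9%) of wild-type against 56.5% (51.9 to 61.0%) of knockout amacrine nuclei had a UMI of the rod rows, against 99.9% and 99.8% in the main body. The part of free RNA in the differences within rods was not tested.

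The rows behind the other scores were rare in the main body, those of cones and Müller glia more so in clusters 0 and 1 than in cluster 3. The 6 cone rows found took 97.5 CPM (75.1 to 124) in wild-type against 120 (89.0 to 159) in knockout nuclei of cluster 0, against 10937 and 7563 in cones. In cluster 3 they took 1032 (894 to 1187) and 654 (540 to 784). The 5 rows of Müller glia, the radial glia of the retina, took 193 (161 to 230) and 160 (123 to 203) in cluster 0 and 704 (590 to 833) and 952 (814 to 1107) in cluster 3, against 4126 and 2870 in Müller glia themselves. The 7 bipolar rows took 629 (570 to 693) and 734 (653 to 822) in cluster 0, against 4913 and 4156 in bipolar cells. In cluster 3 they took 474 (382 to 583) and 766 (643 to 906), with intervals that overlapped those of cluster 0. Up to 3 of these 7 rows were at 0 in a cluster and library of the main body. The 7 microglia rows had 3 UMIs in wild-type against 9 in knockout nuclei of the main body. Among the rows of these 4 scores, cone and Müller rows were thus several-fold higher in cluster 3 than in cluster 0 in both libraries. Their part in the values of cluster 3 was not tested.

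Clusters 0 and 1 were nearly alike in the composition of their transcripts. Of 2524 rows with at least 200 UMIs in these clusters, 1 was past 2-fold higher in cluster 1 than in cluster 0 in both libraries and 1 was past 2-fold lower, each 0.0396% of the rows tested. The higher row had 59.4 CPM (42.2 to 81.2) in cluster 0 and 134 (106 to 168) in cluster 1 of the wild-type library, and 54.0 (33.8 to 81.8) and 131 (109 to 157) in the knockout library. The lower one was a mitochondrial row, with 247 and 117 in the wild-type against 241 and 90.8 in the knockout library. Cluster 3 differed from cluster 0 in more rows. Of 1500 rows tested, 40 were past 2-fold higher in both libraries (2.67%) and 3 were lower (0.2%), and 7 of the 40 were mitochondrial rows, which were all the mitochondrial rows tested. By comparison, 490 of 4651 rows (10.5%) were past 2-fold higher in rod cluster 2 than in cluster 1 in both libraries, and 43 (0.925%) were lower. None of the 6 rod rows was past 2-fold higher in cluster 3 than in cluster 0 in both libraries.

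The 3 most abundant rows of the main body took 1.86%, 1.80% and 1.61% of its 2921394 UMIs, and the 10 most abundant together 9.83%. The first of them differed between clusters and libraries. It had 22713 CPM (22350 to 23081) in wild-type against 15446 (15067 to 15832.5) in knockout nuclei of cluster 0. In cluster 1 it had 15065 (14749 to 15386) and 11698 (11477 to 11922), and in cluster 3 it had 43803 (42871 to 44750) and 31149 (30333 to 31981). It was lower in the knockout library in each of these clusters, but higher in rod cluster 2, at 5872 and 7228, in amacrine cells, at 9935 and 17143, and in ganglion cells, at 9124 and 20130. The second was lower in the knockout by 1.14-fold in cluster 0 and 1.15-fold in cluster 1.

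Between the libraries, few rows of the main body differed by 2-fold. Of 2814 rows with at least 200 UMIs over both libraries, 21 were past 2-fold higher in the knockout library (0.746%) and 18 were past 2-fold lower (0.64%). The median log2 ratio was 0.02, and 91.8% of the rows lay within 0.5 of 0. Of the 21 higher rows, 7 had 50% of their UMIs in 10 nuclei or fewer. The 18 lower rows were spread over more nuclei, and 4 of them were mitochondrial rows. None of the rod score rows was past 2-fold over the main body. With a minimum of 50 UMIs, 106 of 5999 rows were higher (1.77%) and 98 lower (1.63%). In clusters 0 and 1 alone 2524 rows were tested, of which 13 were higher (0.515%) and 12 lower (0.475%). No mitochondrial row and no row held by 10 nuclei or fewer was among these 25.

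**Figure D4:**
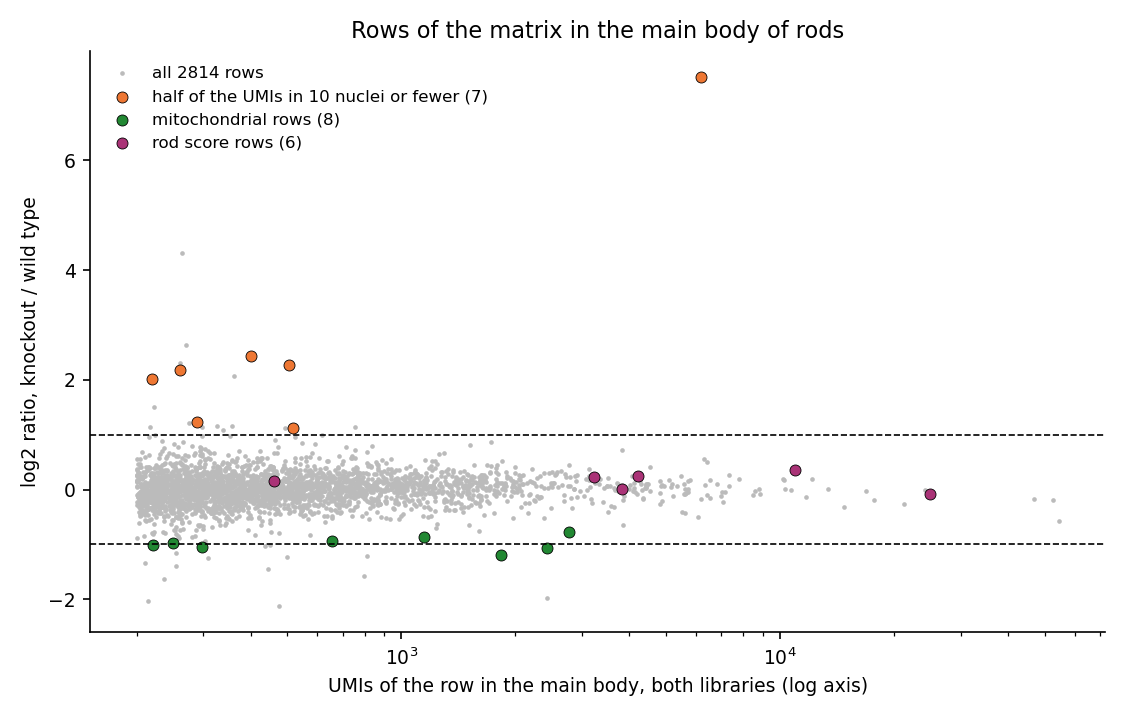
log2 ratio of knockout to wild-type CPM for the 2814 rows with at least 200 UMIs, against their UMIs (log axis); dashed lines mark 2-fold. Rod score rows lie close to 0, mitochondrial rows near −1, and the 7 rows with 50% of their UMIs in 10 nuclei or fewer lie above 1.

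The row with the highest ratio had 32 UMIs in the wild-type against 6177 in the knockout library, and 2 knockout nuclei of cluster 3 held 3102 and 3031 of them. In these nuclei, which lay in the field of rods, the row made up 80.8% and 81.8% of the 3841 and 3705 UMIs, and the 6 rod rows together had 5 and 4 UMIs. Outside these nuclei the row was rare. In cluster 3 it had 27 wild-type UMIs, and the knockout nuclei other than these 2 held fewer UMIs of it. In clusters 0 and 1, rod cluster 2 and cones it was still more frequent in the knockout library. It had 5 wild-type and 38 knockout UMIs in clusters 0 and 1, 2 and 61 in rod cluster 2, and 1 and 69 in cones. The other 6 higher rows held by few nuclei had 83.1% of their UMIs in cluster 3. Of their 2195 UMIs, 50% lay in 10 nuclei, of which 9 came from the knockout library, none lay in the field and 5 were in the group of 11 deep knockout nuclei. In a count added after the values were seen, without nuclei outside the field and without the 2 nuclei, 15 of 2735 rows were higher (0.548%) and 22 were lower (0.804%).

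With 200 UMIs required within a single cluster, fewer rows could be tested. In cluster 0, 3 of 1112 rows were higher in the knockout library (0.27%) and 4 lower (0.36%). In cluster 1, 4 of 1567 were higher (0.255%) and as many lower (0.255%). In cluster 3, 8 of 234 were higher (3.42%) and 9 lower (3.85%), the highest shares of these 3 clusters. The shares come from unlike sets of rows, as only the most abundant rows reached 200 UMIs in cluster 3. The higher rows there included the row held mostly by 2 nuclei, and the lower ones included mitochondrial rows and the first rod row. The shares were 0.604% and 0.377% of 3975 rows in rod cluster 2 and 0.162% and 0.809% of 618 rows in cones. In amacrine cells, 3.32% of 3166 rows were higher and 0.158% lower.

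Of the 2814 rows of the main body, 7 were past 2-fold higher and 5 past 2-fold lower in the knockout library in each of clusters 0, 1 and 3. Of these 7 the row described above, which in cluster 3 was higher only through 2 nuclei, had the highest ratio. The row with the second-highest had 12 wild-type and 252 knockout UMIs in the main body. It had 6.09 CPM (1.66 to 15.6) in wild-type against 179 (140 to 225) in knockout nuclei of cluster 0. In cluster 1 it had 3 and 155 UMIs, which are 5.23 (1.08 to 15.3) and 170 CPM (144 to 198). In cluster 3 it had 26.1 (8.46 to 60.8) and 135 (86.6 to 201). Cones also held 2 wild-type and 39 knockout UMIs of it. It was not higher in the knockout library in amacrine cells, at 212 (189 to 237) and 171 (151 to 192), nor in bipolar cells, at 582 (500 to 673) and 414 (336 to 505), and in rod cluster 2 it had 194 (174 to 215) and 215 (198 to 234). Its UMIs came from 221 nuclei, with at most 4 in any of them.

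Of the 5 rows lower in each of the 3 clusters, the one with the lowest ratio over the main body had 1918 wild-type and 511 knockout UMIs. It had 1349 CPM (1262 to 1441) in wild-type against 358 (303 to 421) in knockout nuclei of cluster 0, 1391 (1296 to 1491) and 331 (295 to 371) in cluster 1, and 1220 (1069 to 1387) and 349 (268 to 448) in cluster 3. The levels were alike over the 3 clusters within each library and 3.49- to 4.20-fold lower in the knockout. It was also lower in rod cluster 2, at 975 (930 to 1022) and 296 (276 to 317), in cones, at 696 (605 to 797) and 369 (308 to 438), and in bipolar cells, at 614 (530 to 708) and 183 (133 to 247). In amacrine cells it had 306 (278 to 335) and 227 (205 to 251). The second-lowest of these 5 rows had 177 and 60 UMIs, with 120 CPM (95.3 to 150) and 46.6 (28.1 to 72.8) in cluster 0, 146 (117 to 181) and 38.3 (26.7 to 53.2) in cluster 1, and 73.0 (39.9 to 122) and 33.8 (12.4 to 73.6) in cluster 3, where the intervals overlapped.

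Another pair of rows had a lower ratio over the main body but was not past 2-fold lower in each cluster; they are given here after their values were seen. The first, with 384 wild-type and 93 knockout UMIs, had a log2 ratio of −2.12, the lowest of the 2814 rows. It was 6.90-fold lower in the knockout library in cluster 0, at 288 and 41.7 CPM, and 5.71-fold lower in cluster 1, at 268 and 47.0 CPM. In cluster 3 it had 214 (153 to 290) and 186 (128 to 261), with overlapping intervals. It was 1.33-fold lower in the knockout library in rod cluster 2, at 407 and 305, and 1.77-fold lower in cones, at 217 and 122. Its levels were higher in amacrine cells, at 1359 and 1030, in bipolar cells, at 863 and 777, and in horizontal cells, at 1072 and 1090. The other had 170 and 44 UMIs and a log2 ratio of −2.03, against −1.98 for the row with 1918 and 511 UMIs.

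**Figure D5:**
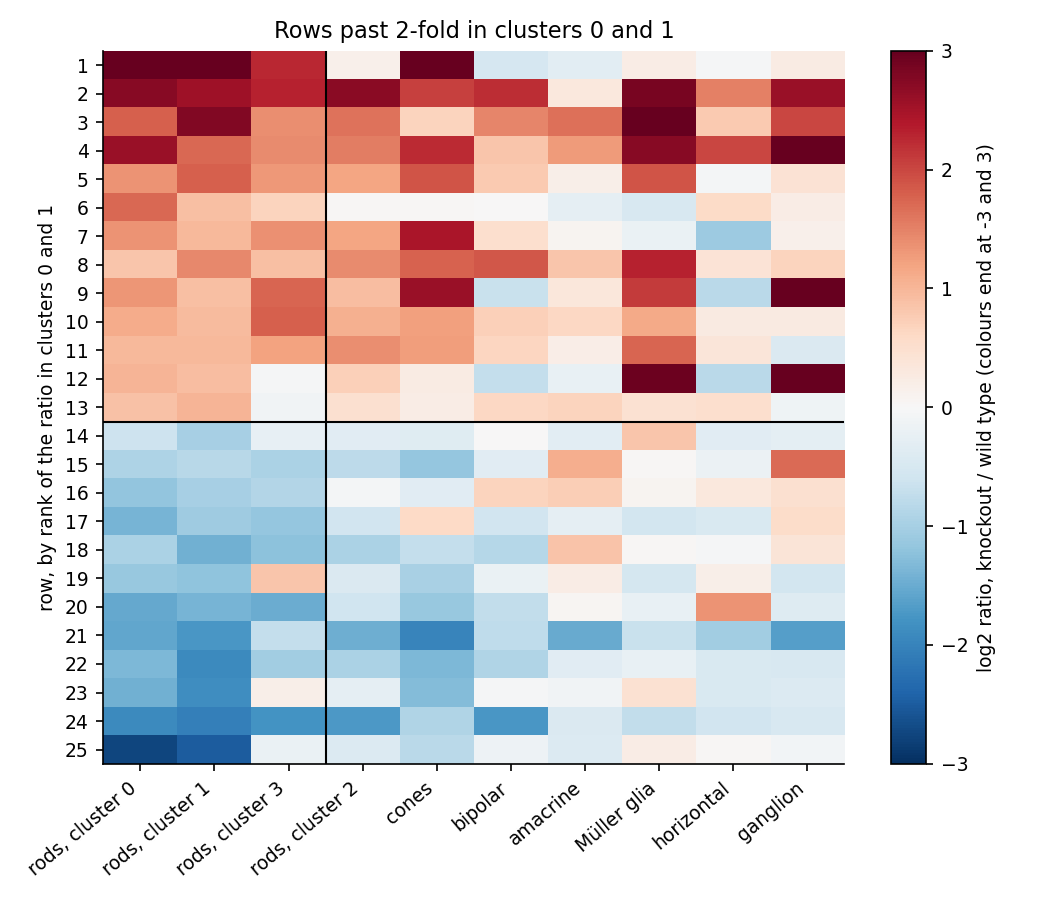
log2 ratio of knockout to wild-type CPM, with 0.5 UMI added, of the 25 rows past 2-fold in clusters 0 and 1 (rows, ordered by their ratio there), in the clusters of the main body (left of the line) and in other cell types. The colours are fainter in amacrine cells than in rod cluster 2 and cones. The 13 higher rows have their highest median, 1.90, in Müller glia, where it is the value of a row with 8 UMIs.

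The 25 rows past 2-fold in clusters 0 and 1 were chosen for their ratio there, and their ratios in other populations, which come from the same 2 libraries, are given side by side. The 13 higher rows had a median log2 ratio of 1.18 in clusters 0 and 1, 1.38 in cluster 3, 1.18 in rod cluster 2, 1.76 in cones and 0.31 in amacrine cells. It was 1.90 in Müller glia, the highest of these populations, 0.64 in bipolar, 0.43 in ganglion and 0.37 in horizontal cells. The Müller median was the value of a row with 8 UMIs there over both libraries, and the highest Müller ratio, 4.77, that of a row with 9. The 12 lower rows had −1.32 in clusters 0 and 1, −0.91 in cluster 3, −0.58 in rod cluster 2, −0.94 in cones and −0.19 in amacrine cells. They had −0.46 in bipolar, −0.34 in ganglion, −0.26 in horizontal cells and −0.09 in Müller glia. Over all 2524 rows the medians in these populations lay between −0.06 and 0.11.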

How the data were processed

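Nuclei of 1 wild-type and 1 CLRN1 knockout library were profiled with droplet 3' chemistry, per the labels. The deposited matrix holds raw UMI counts per row, and the authors' table gives each nucleus its library, cluster, cell type, embedding, percent of mitochondrial UMIs and module scores. The deposited percent values and score values were used as the authors gave them. The genome build OryCun2.0 and the tools Seurat 4.3.0, Cell Ranger 7.0 and DESeq2 1.38.0 are listed, without roles, per the submitters' processing notes. The sources used here give no treatment of doublets or free RNA, and no doublet caller was run.

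Counts were summed per library and cluster and given as counts per 1000000 UMIs of that population. Rows with at least 200 UMIs were called past 2-fold, with no test. Rows described by ratio are the 2 highest and 2 lowest over the main body among those past 2-fold the same way in each of clusters 0, 1 and 3, and 2 more lower rows were added after their values were seen. Nuclei were thinned to 500 UMIs with a fixed seed. Members, lists and rules were chosen with earlier results of these data known. The steps were tested on simulated data. Python 3.11.15, numpy 2.4.6, pandas 2.3.3, SciPy 1.17.1 and matplotlib 3.10.9 were used. The main body held 1422020 wild-type and 1499374 knockout UMIs.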

Additional observations from a re-analysis of the deposited data

How the results depend on the processing

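No paired analysis was possible because each genotype has 1 library. Of 38 alternatives over 14 results, 22 kept the sign and left the value within its interval or range. Another 13 kept the sign and moved it outside, and 3 changed its sign. The difference in the main body's share of nuclei (knockout less wild type, −0.35 percentage points) became 7.16 among nuclei with at least 1000 UMIs, 2.21 under 1% mitochondrial UMIs and 1.65 with clusters 0 and 1 only. Among nuclei with at least 1000 UMIs the difference was −9.98 points for cluster 0, 14.3 for cluster 1 and −6.27 for the share over 1% mitochondrial UMIs. The last was −1.29 in clusters 0 and 1, and cluster 3 differed by −1.30 under 1% mitochondrial UMIs. Averaged within clusters, the log2 ratio of UMIs was 0.11 and the difference in detected rows 3.83. Thinned to 1000 UMIs it was 3.5, over 360 wild-type and 510 knockout nuclei. With at least 50 UMIs, 204 rows were past 2-fold, 106 higher and 98 lower, and in clusters 0 and 1 alone 25 were, 13 of them higher. The cause of these changes was not tested. Counting error limits rows with few UMIs, and 1 library per genotype limits every comparison.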
